A study of Mus musculus with 23 samples.

Results

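Interferon response and antigen presentation genes were followed across mouse myogenic cells that carried extra Notch1 signalling, lacked Notch1 or were left as controls, both in the culture dish and after their return from muscle. The set holds 34 genes, chosen by symbol from a deposited table of 21264 genes, of which 32 are listed there and Mx1 and Mx2 are absent and not analysed here. By role the listed genes are 5 transcription factors, 2 nucleic acid sensors, 11 antiviral effectors, 7 regulators and other induced genes, 1 chemokine and 6 genes of class I antigen presentation.

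RNA came from 23 libraries of iPAX3 cells, in which induced Pax3, a muscle lineage transcription factor, turns pluripotent stem cells into myogenic progenitors. The re-isolated libraries, labelled as donor-derived satellite cells, are 4 of N1OE, in which NICD1 (the active intracellular part of the receptor Notch1) is overexpressed, 3 of N1KO, in which Notch1 is knocked out, and 9 of control cells labelled WT. The cultured libraries, labelled as ESC-derived myogenic progenitors, are 3 of N1OE and 4 of control cells labelled WT. All 5 groups share the iPAX3 line. The promoter behind NICD1, the number of clones, and the strain and age of the host mice are not given in the sources used here. Replicates carry numbers, but nothing says whether they were separate cultures or hosts, so every p-value below measures the spread between these libraries alone, which may be technical. Since all libraries are bulk RNA, fewer cells of a type and less RNA per cell cannot be told apart.

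All 21264 genes of the deposited table together took 11637817 to 29154176 reads a library, and levels are given as CPM (reads of a gene scaled to a common library total). Notch1 measured 98.1 to 257 CPM in re-isolated N1OE and 15.6 to 52.6 CPM in N1KO, against 14.9 to 174 CPM in re-isolated controls, and 297 to 370 CPM in cultured N1OE against 61.3 to 105 CPM in cultured controls. N1KO overlapped the lowest controls, and a total for the gene cannot reveal a partial deletion, so Notch1 does not settle the knockout label. The satellite cell factor Pax7 lay between 11.5 and 154 CPM in the 16 re-isolated libraries, against at most 0.891 CPM in the 7 cultured ones. Re-isolated RNA was made into libraries with a low input kit and cultured RNA with a stranded mRNA kit, so that setting and kit cannot be told apart. The column headers of 5 re-isolated controls (replicates 1, 4, 7, 8 and 9) carry the letters GoF and are called marked here, and the other 4 (replicates 2, 3, 5 and 6) are called unmarked. In culture 1 of the 3 N1OE libraries (replicate 1) and all 4 controls carry the letters too, so there the mark moves with the group, and its part was not tested. The 4 re-isolated N1OE and 3 N1KO libraries carry no mark, so the pooled control group differs from them in this too, and the unmarked controls are alike to them in it. The labels do not explain the mark, and 27.6% of tested genes differed between the sets. Comparisons with re-isolated controls are therefore given over all 9 and within each set. Replicate 7 carries the letters in its header but not in its sample description. The sets follow the headers, and the calls between them were lost when the descriptions were used (below).

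Interferons are secreted alarm signals. Type I interferons act through the receptor chains Ifnar1 and Ifnar2 and the kinases Jak1 and Tyk2 on factors that include Stat2, which joins Irf9 on a promoter element called the interferon-stimulated response element. The genes switched on in this way detect foreign nucleic acid, block viral protein synthesis or viral release, and raise the class I molecules on which a cell shows peptides to T cells. The gamma interferon acts on a different element, the gamma-activated site, and through Irf1. In skeletal muscle, class I molecules are low in resting tissue and are known to rise in inflammation.

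The promoters of 6 members are shown because some hold an exact match of the core of the response element and others do not. Their genes also carry the results below. Each is the 250 bases before the start of the gene in RefSeq on the GRCm38.p6 assembly. They are Isg15 (chr4:156200819-156201068, minus strand), Ifit1 (chr19:34640639-34640888, plus strand), Ifit3 (chr19:34583279-34583528, plus strand), Oas1a (chr5:120907526-120907775, minus strand), H2-K1 (chr17:34000348-34000597, minus strand) and Trim25 (chr11:88999153-88999402, plus strand). Capitals mark the core of the response element, which is GAAA, then 2 bases of any kind, then GAAA again, on either strand.
Isg15: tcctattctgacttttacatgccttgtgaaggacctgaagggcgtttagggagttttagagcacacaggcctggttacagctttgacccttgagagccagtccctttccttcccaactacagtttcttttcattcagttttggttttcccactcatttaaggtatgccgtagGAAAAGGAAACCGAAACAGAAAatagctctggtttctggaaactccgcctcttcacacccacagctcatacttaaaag
Ifit1: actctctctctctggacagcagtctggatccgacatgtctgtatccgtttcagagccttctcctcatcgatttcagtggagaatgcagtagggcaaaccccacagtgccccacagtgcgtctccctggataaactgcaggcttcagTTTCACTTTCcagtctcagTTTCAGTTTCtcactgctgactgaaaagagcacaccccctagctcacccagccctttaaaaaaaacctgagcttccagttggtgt
Ifit3: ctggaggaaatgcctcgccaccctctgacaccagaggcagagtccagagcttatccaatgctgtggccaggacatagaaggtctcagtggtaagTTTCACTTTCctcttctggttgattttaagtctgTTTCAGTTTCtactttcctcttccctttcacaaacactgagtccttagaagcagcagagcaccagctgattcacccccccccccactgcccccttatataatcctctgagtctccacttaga
Oas1a: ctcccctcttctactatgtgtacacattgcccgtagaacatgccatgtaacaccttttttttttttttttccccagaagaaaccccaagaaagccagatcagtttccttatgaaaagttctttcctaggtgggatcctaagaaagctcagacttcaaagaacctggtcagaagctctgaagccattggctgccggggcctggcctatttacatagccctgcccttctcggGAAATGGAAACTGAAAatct
H2-K1: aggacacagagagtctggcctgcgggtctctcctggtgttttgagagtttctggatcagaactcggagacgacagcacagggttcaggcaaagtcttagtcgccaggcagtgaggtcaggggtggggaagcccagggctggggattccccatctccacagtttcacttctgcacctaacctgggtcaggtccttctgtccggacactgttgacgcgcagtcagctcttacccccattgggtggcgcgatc
Trim25: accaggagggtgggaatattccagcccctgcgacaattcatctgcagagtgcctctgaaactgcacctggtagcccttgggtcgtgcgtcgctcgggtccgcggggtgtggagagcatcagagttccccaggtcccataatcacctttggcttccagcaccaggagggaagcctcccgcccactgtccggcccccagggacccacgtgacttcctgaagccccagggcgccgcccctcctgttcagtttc

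Matches of the core were found in 12 of the 27 members that have a window in that table, which is 44.4% of them, against 3.99% of all 27025 genes with one. The windows searched run from 250 bases before to 50 after the start. A shorter motif of the gamma-activated site, TTCNNNGAA, was in 7 of 27 members (25.9%), against 9.55% of all genes. The motifs overlapped in 1 of the 33 windows of members, that of Bst2. Isg15 holds 3 overlapping matches of the core, and Ifit1 and Ifit3 hold 2 each. Neither H2-K1 nor Trim25 holds one within these windows. A match is a description of letters and says nothing about binding. Looser forms of the element were not searched, so a window without an exact match may still hold one.

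**Figure D1:**
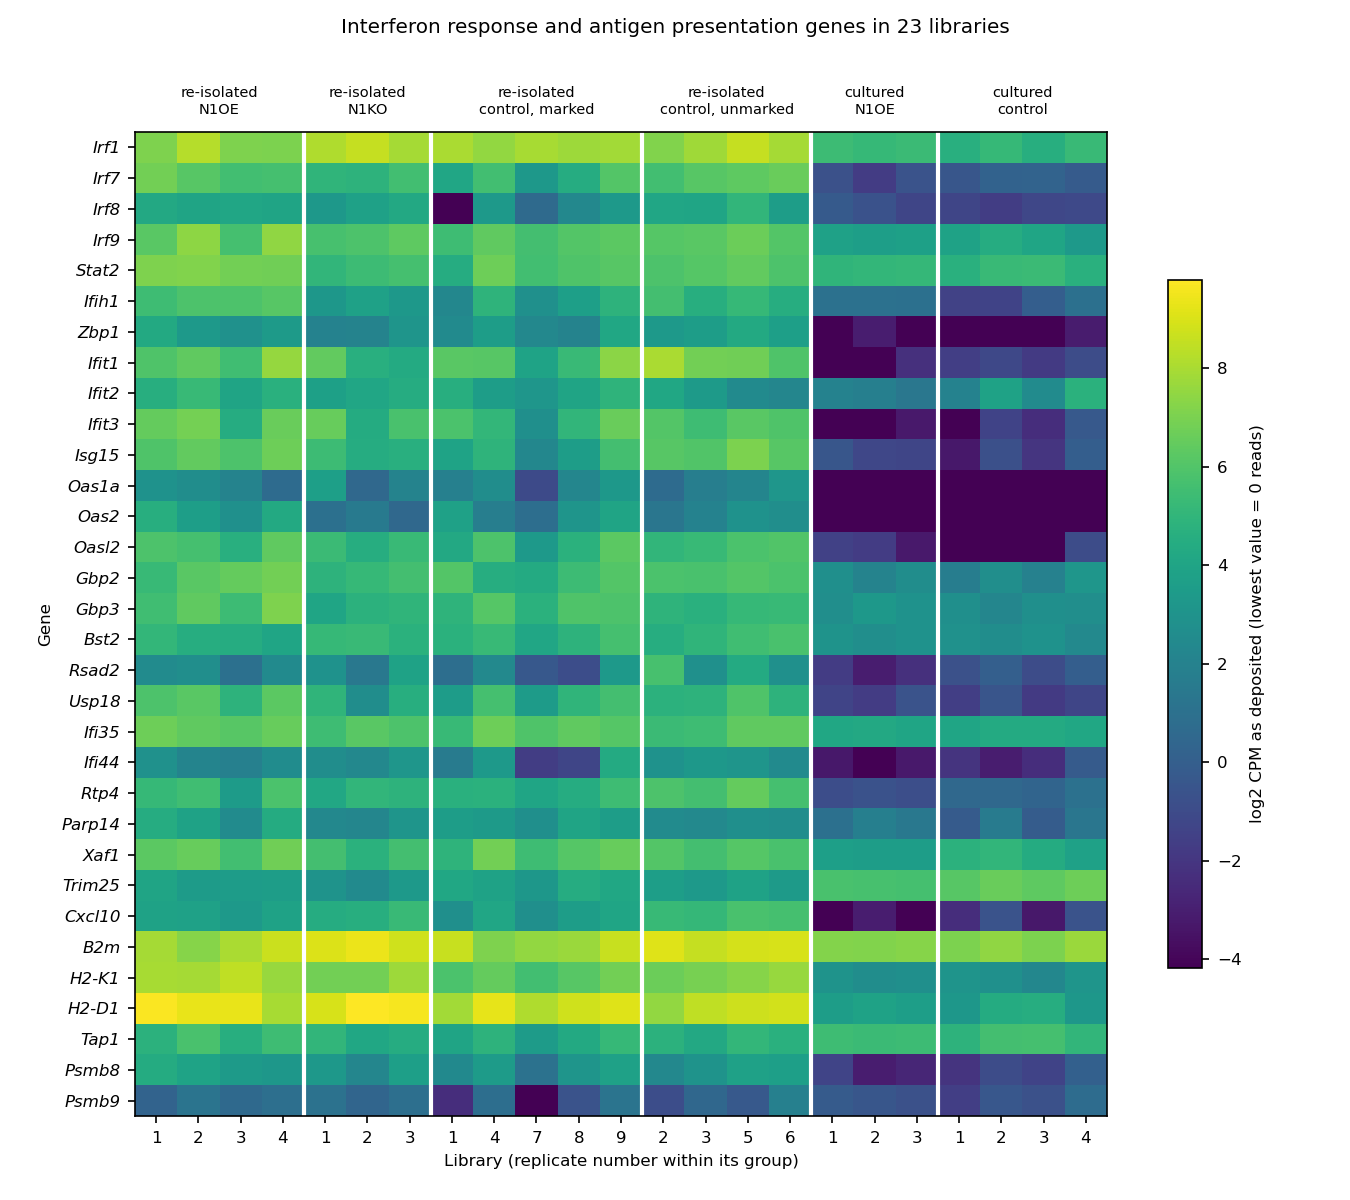
Deposited log2 CPM (colour) of the 32 listed genes (rows, by role) in all 23 libraries (columns, by group and replicate number). Most rows are dark in the 7 cultured libraries and lighter in the 16 re-isolated ones, and Trim25 runs the other way. Irf8 in re-isolated control 1 and Psmb9 in re-isolated control 7 are at 0 reads.

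Most members were higher after re-isolation than in culture. In all 7 cultured libraries 12 members stayed under 1 CPM, and 2 of these, Oas1a and Oas2, had no read at all. In re-isolated cells 27 members exceeded 1 CPM in each of the 16 libraries. For 22 members every re-isolated library lay above every cultured one, and for 1, Trim25, every re-isolated library lay below. These pooled counts stand without a share of all genes. Shares of all genes without overlap are given below for controls and N1OE separately.

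Re-isolated controls were set against cultured controls first. By limma 28 of 32 members were higher and 2 lower (adjusted p under 0.05, Benjamini-Hochberg over all genes tested), against 24.1% of 13731 tested genes called higher, 33.9% called lower and 58.1% called either way. The median log2 fold change was 3.77 over the members and -0.23 over all tested genes. In 22 members no library of the re-isolated controls overlapped the cultured controls from above, and in 1 from below, against 14.2% and 24.7% of tested genes. Scaling by median ratios takes out a shift of -0.30 in log2, which raises every fold change by the size of that shift. Under it 28 members were higher and 1 lower, and over all genes 4181 were higher and 3809 lower, against 3316 and 4658 with the values as deposited.

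Among the transcription factors Irf7, the master factor of the type I response, had a lowest, median and highest level of 9.48, 48.1 and 97.2 CPM in the 9 re-isolated controls, against 0.689, 1.11, 1.16 and 0.833 CPM in cultured controls. The groups did not overlap, and the log2 fold change was 5.36 ± 0.54 (SE; adjusted p = 1.02e-06). Irf1, which answers both interferon types, had 143, 233 and 376 CPM as its lowest, median and highest level in re-isolated controls, against 25.1, 35.7, 23.99 and 39.3 CPM in culture, without overlap (2.91 ± 0.23, adjusted p = 9.8e-08). Irf9, the DNA-binding partner of Stat2, was also above all cultured controls (2.15 ± 0.24). Irf8, a factor of myeloid cells that other cells can induce, ranged from 0 to 32.4 CPM in re-isolated controls, against 0.262 to 0.416 CPM in culture, and the groups overlapped through control 1 (3.77 ± 1.25, adjusted p = 0.0172). Stat2 rose least of the 5, by 0.90 ± 0.32 (adjusted p = 0.0260), with 22.1 to 105 CPM after re-isolation against 25.9 to 40.6 CPM in culture.

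Both sensors were up. Zbp1, which binds left-handed nucleic acid and can start cell death, had 4.12 to 19.6 CPM in re-isolated controls and a single read in all 4 cultured controls together. The ratio of CPM was 817, with a 95% counting interval of 146 to 32271. Ifih1 (MDA5), a sensor of long double-stranded RNA, had 4.91, 24.04 and 49.6 CPM as its lowest, median and highest level, against 0.322, 0.327, 0.928 and 1.90 CPM in culture (4.75 ± 0.61, adjusted p = 1.12e-05). All 9 re-isolated controls exceeded the 4 cultured ones in both genes.

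Among the effectors Oas1a and Oas2, which make the 2′-5′ oligoadenylates that activate RNase L, had no read in cultured controls and were at least 117-fold and at least 185-fold higher after re-isolation, taking 3 reads over the cultured group as the limit. Oasl2, their relative, had 9.91 to 78.6 CPM after re-isolation, and in culture it had reads only in control 4 (0.476 CPM) (8.56 ± 0.65, adjusted p = 6.66e-08). Ifit1 (chromosome 19, 34640871 to 34650009, on GRCm38 as are all gene coordinates here), which binds viral RNA caps, had 15.2, 74.7 and 264 CPM as its lowest, median and highest level, against 0.276, 0.393, 0.232 and 0.476 CPM in culture (7.65 ± 0.56, adjusted p = 4.76e-08). Ifit3, of the same gene family (chromosome 19, 34583531 to 34588731), had 6.93 to 97.2 CPM, against 0, 0.327, 0.139 and 0.773 CPM (7.51 ± 0.69). Neither Ifit1 nor Ifit3 overlapped between settings. Isg15 (chromosome 4, 156199424 to 156200818), a ubiquitin-like protein that is attached to other proteins, had 4.90, 48.5 and 134 CPM as its lowest, median and highest level, against 0.046, 0.524, 0.186 and 0.952 CPM in culture (6.62 ± 0.80, adjusted p = 5.9e-06).

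The guanylate-binding GTPases Gbp2 (3.16 ± 0.37) and Gbp3 (2.66 ± 0.30) and Bst2, which tethers budding virions (2.32 ± 0.30), lay above all cultured controls. Rsad2 (viperin), an antiviral radical enzyme, rose by 2.75 ± 0.98 (adjusted p = 0.0258) with overlapping libraries, 0.485 to 54.0 CPM against 0.464 to 0.982 CPM. Ifit2 did not pass (0.29 ± 0.55, adjusted p = 0.665), with 4.58 to 30.1 CPM after re-isolation and 4.04 to 27.3 CPM in culture. It is the one IFIT gene that cultured controls already expressed above 1 CPM.

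Among the regulators Usp18, which removes Isg15 and dampens the receptor, rose by 6.15 ± 0.46 (adjusted p = 5.55e-08), and the chaperone gene Rtp4 by 4.63 ± 0.40 (2.14e-07). Ifi44 (3.94 ± 1.02), the ADP-ribosyltransferase gene Parp14 (2.42 ± 0.43), Ifi35 (1.77 ± 0.27) and the apoptosis factor gene Xaf1 (1.42 ± 0.32) rose too. Trim25 (chromosome 11, 88999376 to 89020293), the ubiquitin ligase that activates the RNA sensor RIG-I, fell. It had 9.27, 14.7 and 22.5 CPM as its lowest, median and highest level in re-isolated controls, against 70.6, 96.1, 81.1 and 106 CPM in cultured controls (-2.65 ± 0.25, adjusted p = 5.75e-07). The chemokine Cxcl10, which draws T cells, had 6.74, 17.1 and 54.9 CPM as its lowest, median and highest level, against 0.138, 0.589, 0.0464 and 0.595 CPM in culture (6.08 ± 0.66, adjusted p = 2.12e-06).

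The class I pathway split. The heavy chain genes H2-K1 (chromosome 17, 33996017 to 34000347) and H2-D1 (chromosome 17, 35262730 to 35267499) rose by 3.77 ± 0.33 and 4.67 ± 0.34 (adjusted p = 2.86e-07 and 4.68e-08). H2-K1 had 47.4, 100.1 and 199 CPM as its lowest, median and highest level in re-isolated controls, against 8.18, 7.14, 4.83 and 8.68 CPM in culture. The immunoproteasome subunit gene Psmb8, which cuts peptides for class I, rose by 4.07 ± 0.54 (2.08 to 14.2 CPM against 0.184 to 1.01 CPM). B2m, the light chain of every class I molecule, rose by only 1.04 ± 0.35 (adjusted p = 0.0196), with 138 to 557 CPM against 132 to 205 CPM and overlap. Psmb9, the other immunoproteasome gene of the set, did not pass (0.05 ± 0.96, adjusted p = 0.967), and Tap1, which pumps peptides into the endoplasmic reticulum, fell by 0.78 ± 0.30 (adjusted p = 0.0376). Tap1 and Psmb9 overlap on opposite strands, and H2-K1 and H2-D1 are near-identical to other class I genes, so reads of these 4 may be shared out wrongly.

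Some of these calls rest on few libraries. Against the cultured controls the marked controls alone gave 26 calls, without Irf8 (2.40, adjusted p = 0.147), Stat2 (0.76, 0.113), Rsad2 (1.47, 0.146) and B2m (0.60, 0.130), and the unmarked controls alone gave 29, without Tap1 (-0.59, 0.0681). With the marked controls 24 members were higher and 2 lower, against 25.3% and 37.5% of tested genes (62.8% either way). With the unmarked controls 28 were higher and 1 lower, against 27.8% and 37.9% (65.8% either way). Tap1 also missed the threshold under median ratio scaling (-0.48, adjusted p = 0.158). Without the filter on low levels Irf8 (0.0508), Stat2 (0.0523), Tap1 (0.0589) and Rsad2 (0.0658) just missed. Limma-voom on recovered reads lost Irf8 (3.42, 0.375), Rsad2 (2.83, 0.155) and Ifi44 (4.19, 0.0873). Leaving out 1 library lost Stat2 without cultured control 1 (0.0843) or 4 (0.0774), Rsad2 without cultured control 1 (0.0630) or 3 (0.0696), and B2m without the same 2 libraries (0.0627 and 0.0628). Tap1 was lost without cultured control 2 (0.120) or 3 (0.125) or re-isolated control 1 (0.0531), 3 (0.0545) or 8 (0.0544).

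N1OE cells showed the same contrast of settings in their own libraries. Of 32 members 28 were higher and 1 lower after re-isolation, against 25.3% and 33% of 13178 tested genes (58.2% either way), with a median log2 fold change of 4.85 over the members and -0.23 over all tested genes. In 29 members the 4 re-isolated libraries lay above all 3 cultured ones, and in 1 below, against 26.7% and 36.5% of tested genes. Ifit3 had 91.3, 119, 21.8 and 95.6 CPM in re-isolated N1OE and a single read in cultured N1OE (ratio 4962, counting interval 890 to 196032). Ifit1 had 62.2, 84.6, 45.8 and 193 CPM and 3 reads in culture (ratio 1806, interval 618 to 8759). Cxcl10 (ratio 763, interval 137 to 30167), Zbp1 (744, interval 133 to 29418) and Ifi44 (161, interval 44.3 to 1334) had 1 or 2 reads in culture, and Oas1a and Oas2 were at least 99.0-fold and at least 329-fold higher.

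Ifit2, which did not pass in controls, passed in N1OE. It had 23.7, 38.5, 15.5 and 25.8 CPM in re-isolated N1OE, against 4.06, 3.52 and 2.54 CPM in cultured N1OE, without overlap (2.87 ± 0.39, adjusted p = 3.57e-05). Stat2 rose by 1.89 ± 0.29 and Xaf1 by 2.66 ± 0.34. Trim25 fell by 2.06 ± 0.31 (adjusted p = 7.88e-05), with 15.8, 11.0, 11.8 and 12.1 CPM against 54.3, 52.9 and 50.3 CPM. B2m (0.77 ± 0.35, adjusted p = 0.0741), Psmb9 (1.16 ± 0.51, 0.0659) and Tap1 (-0.23 ± 0.35, 0.595) did not pass. B2m passed without re-isolated N1OE 2 (1.01, 0.0168), Psmb9 without re-isolated N1OE 1 (1.32, 0.0244) or 3 (1.21, 0.0479), and both passed under median ratio scaling, which takes out a shift of -0.32 in log2 (B2m 1.08, 0.0188, and Psmb9 1.46, 0.0250). Over all genes that scaling gave 4078 higher and 3468 lower, against 3328 and 4344 as deposited.

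**Figure D2:**
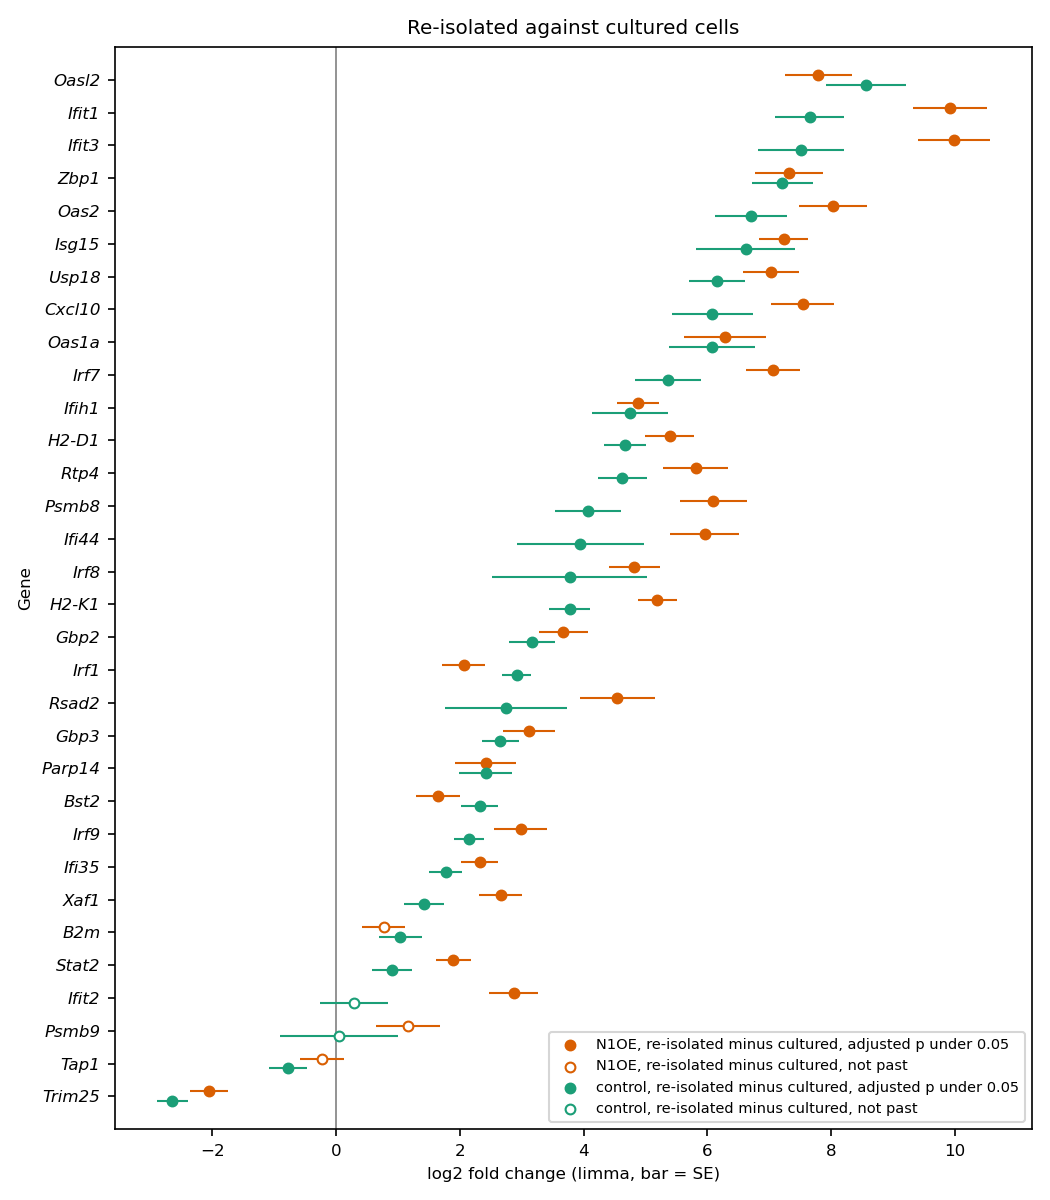
Log2 fold change of each listed gene between re-isolated and cultured cells, for N1OE (orange) and controls (green), with the SE of limma as a bar and filled points for an adjusted p under 0.05. Nearly all points lie right of 0 (higher after re-isolation), with Trim25 at -2.06 in N1OE and -2.65 in controls on the left. For Oas1a and Oas2, which had no read in culture, and for genes with 1 to 3 reads there, the fitted values depend on the small count that the authors added.

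Other genes of the pathway were counted in the same comparisons. In controls 39 of 54 tested interferon-induced genes were higher after re-isolation and 3 lower, as were 12 and 0 of 25 other antigen presentation genes, 9 and 3 of 16 signalling genes, and 3 and 3 of 10 sensing genes. The sensing counts lie close to the shares of all tested genes called higher and lower. Ifi27, a mitochondrial interferon-induced gene, had 328 ± 99.99 CPM after re-isolation against 7.47 ± 3.55 CPM in culture (SD, n = 9 and 4; log2 fold change 5.49 ± 0.30, adjusted p = 4.54e-09). Socs3, a feedback inhibitor of cytokine receptors, had 859 ± 580 CPM against 21.1 ± 5.63 CPM (5.09 ± 0.45, 3.09e-07), and the secreted glycoprotein gene Lgals3bp had 155 ± 48.3 CPM against 12.0 ± 5.64 CPM (3.73 ± 0.29, 7.42e-08). The receptor kinases Jak2 (-1.95) and Tyk2 (-1.64) and the lambda interferon receptor Ifnlr1 (-4.71) were the 3 signalling genes that fell. In N1OE the counts were 42 higher and 4 lower of 47 interferon-induced genes, 13 and 1 of 20 antigen presentation genes, 7 and 3 of 16 signalling genes and 3 and 1 of 10 sensing genes.

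The interferons themselves were at or near 0. The alpha interferon Ifna2 and the lambda interferons Ifnl2 and Ifnl3 had no read in any group, and the alpha interferon Ifna4 had 1 read, in N1KO. Ifnb1, the beta interferon, had reads in 1 of the 9 re-isolated controls (0.179 CPM) and in 1 cultured N1OE library (0.0495 CPM). Ifng, the gamma interferon, had 0 reads in re-isolated N1OE and reached 0.161 CPM in N1KO and 1.33 CPM in re-isolated controls.

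Markers of other cells also differed between settings. The summed level of 14 macrophage markers was 75.2 to 829.4 CPM in re-isolated controls against 4.09 to 13.9 CPM in cultured controls, and 39.6 to 196 CPM in re-isolated N1OE against 4.90 to 8.18 CPM in cultured N1OE. In controls 12 of 13 tested macrophage markers were higher after re-isolation, and Adgre1 and C1qa had no read in any cultured library. Sums of 6 fibro-adipogenic markers were 171 to 8879 CPM over the 16 re-isolated libraries against 14.2 to 275 CPM over the 7 cultured ones. In the same libraries the sums were 5.40 to 140.2 against 1.20 to 8.68 CPM for 7 endothelial markers, 897 to 3186 against 96.3 to 817 CPM for 6 pericyte and smooth muscle markers and 36.4 to 303 against 3.21 to 6.62 CPM for 4 Schwann and glial markers. They were 0.181 to 13.2 against 0.126 to 0.418 CPM for 5 dendritic cell markers, 0.0606 to 10.5 against 0.189 to 0.714 CPM for 9 lymphocyte and neutrophil markers, 0 to 2.36 against 0.131 to 0.609 CPM for 4 pluripotency markers and 1238 to 3972 against 642 to 1374 CPM for 10 myogenic markers. The part of these cells in the members' levels was not tested.

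**Figure D3:**
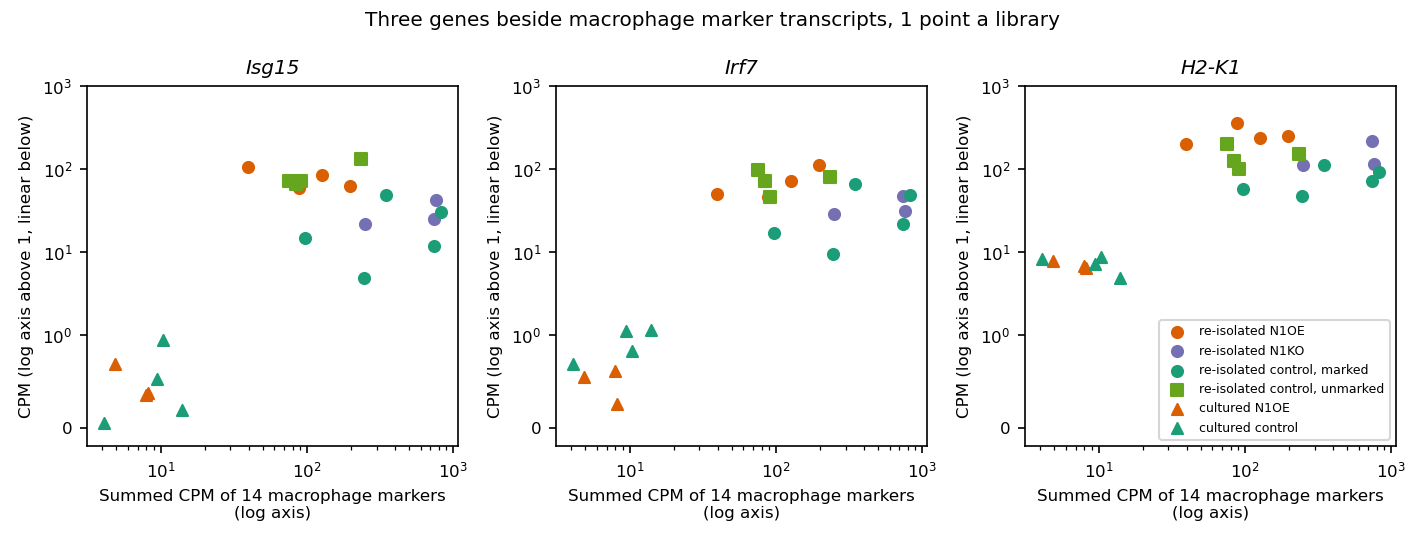
Isg15, Irf7 and H2-K1 in CPM (vertical, logarithmic above 1 and linear below) against the summed CPM of 14 macrophage markers (horizontal, logarithmic) in each of the 23 libraries. The 7 cultured libraries (triangles) sit at the lower left with sums of 4.09 to 13.9 CPM, and the unmarked controls (squares) sit high at sums of 75.2 to 234 CPM.

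In culture the share of members called in N1OE was close to that of all genes. Only 17 of the 32 were expressed enough to be tested in these 7 libraries. By limma 0 were higher and 2 lower in N1OE, against 4.73% and 6.03% of 12314 tested genes (10.8% either way), and the median log2 fold change was -0.01 over the 17 members and 0.07 over all tested genes. In 0 members all N1OE libraries lay above the controls and in 3 below, against 21.1% and 13.7%. Median ratio scaling left both member calls and gave 428 genes higher and 882 lower, against 583 and 742 as deposited.

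The 2 that fell were Trim25 and Rtp4. Trim25 had 54.3, 52.9 and 50.3 CPM in cultured N1OE, against 70.6, 96.1, 81.1 and 106 CPM in cultured controls. Every N1OE library lay below every control (-0.73 ± 0.15, adjusted p = 0.0259). Rtp4, a chaperone of surface receptors, had 0.495, 0.566 and 0.508 CPM against 1.38, 1.38, 1.21 and 2.02 CPM (-1.40 ± 0.33, adjusted p = 0.0404), so that it fell at very low levels. Xaf1 had 13.0, 12.3 and 12.1 CPM against 28.2, 32.5, 21.1 and 13.98 CPM, without overlap, and did not pass (-0.87 ± 0.28, 0.0886). H2-K1 (-0.01 ± 0.24, adjusted p = 0.974), Stat2 (0.06 ± 0.20, 0.871) and B2m (-0.12 ± 0.17, 0.660) did not pass.

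Neither fall was firm. Rtp4 missed the threshold without N1OE 1 (0.134), 2 (0.151) or 3 (0.165) or control 1 (0.0583), 2 (0.0869) or 3 (0.0528), with a pseudocount of 1 CPM (0.0517) and with limma-voom (0.0551). Trim25 missed it without N1OE 1 (0.0828), 2 (0.115) or 3 (0.124) or control 2 (0.0676). Both missed it without the filter on low levels (Rtp4 0.0729, Trim25 0.0610). Without control 4 the sensor Ifih1 (1.93, 0.0398) and Xaf1 (-1.10, 0.0144) passed as well.

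Of 29 other interferon-induced genes 5 fell and 0 rose in cultured N1OE, as did 1 and 0 of 15 antigen presentation genes and 1 and 0 of 15 signalling genes. The lectin gene Lgals9 had 9.62 ± 0.139 CPM in N1OE and 34.03 ± 15.5 CPM in controls (SD, n = 3 and 4; -1.72 ± 0.31, adjusted p = 0.0180). The immunity-related GTPase Irgm1 had 14.3 ± 1.76 CPM against 26.6 ± 4.13 CPM (-0.89 ± 0.16, 0.0197), and its relatives Iigp1 (-2.64 ± 0.54, 0.0284) and Irgm2 (-1.54 ± 0.39, 0.0485) fell too. The non-classical class I gene H2-T23 fell by 1.78 ± 0.33 (0.0209) and Socs3 by 1.11 ± 0.25 (0.0368). Of 9 sensing genes 0 passed limma, with 1 at an unadjusted p under 0.05. Fibro-adipogenic sums were 14.2 to 17.9 CPM in cultured N1OE against 44.0 to 275 CPM in cultured controls. Much of these sums was Ly6a, with 4.60 to 13.7 CPM against 39.0 to 272 CPM. Col15a1 went the other way, with a mean of 2.94 CPM in N1OE against 2.10 CPM. Of 9 tested myogenic markers 1 was higher and 2 lower. The part of these cells was not tested.

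After re-isolation 3 members were higher in N1OE cells than in controls. By limma 3 of 32 were higher and 0 lower, against 3.78% and 3.29% of 14155 tested genes (7.06% either way). The median log2 fold change was 0.63 over the members, 25 of which were positive, and 0.06 over all tested genes. In 2 members all 4 N1OE libraries lay above all 9 controls and in 0 below, against 2.98% and 1.82% of tested genes.

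H2-K1, a class I heavy chain, had 252, 238, 356 and 203 CPM in re-isolated N1OE. In the 9 controls its lowest, median and highest levels were 47.4, 100.1 and 199 CPM, so the groups did not overlap (1.40 ± 0.33, adjusted p = 0.0141). Stat2, the transcription factor of the type I response, had 139, 143, 115 and 108 CPM in N1OE, against 22.1, 61.6 and 105 CPM as the lowest, median and highest control, again without overlap (1.05 ± 0.31, adjusted p = 0.0461). Ifih1 had 44.1, 60.1, 59.98 and 72.9 CPM in N1OE, against 4.91, 24.04 and 49.6 CPM in controls. Its lowest N1OE library lay under the highest control (1.58 ± 0.48, adjusted p = 0.0492). The remaining class I genes did not pass: H2-D1 0.57 ± 0.36, Tap1 0.65 ± 0.33, Psmb8 0.75 ± 0.47, Psmb9 1.17 ± 0.86 and B2m -0.39 ± 0.36.

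Which members passed depended on the controls. Against the 5 marked controls 4 of 32 members passed, all higher, against 6.26% of 13870 tested genes called higher and 5.47% lower (11.7% either way): H2-K1, Stat2 and Ifih1 with Isg15 (2.20, adjusted p = 0.00428). There 29 of 32 fold changes were positive, against 53.3% over all tested genes. Against the 4 unmarked controls 4 were higher and 2 lower, against 9.33% and 10.1% of 13832 tested genes (19.5% either way), and 20 fold changes were positive, against 53.1%. Both counts either way are near these shares and are no result about the members as a set. The 4 were Stat2 with Ifit2 (1.55, 0.0146), Oas2 (1.59, 0.0302) and Gbp3 (1.11, 0.0423), and the 2 were Cxcl10 (-1.72, 0.00115) and B2m (-0.94, 0.0479). Ifih1 (0.88, 0.0716) and H2-K1 (0.88, 0.0599) kept their direction there without passing. Stat2 thus passed against either set and in the pooled comparison. Isg15 had 62.9, 85.8, 59.8 and 106 CPM in N1OE, against 14.96, 30.1, 4.90, 11.9 and 48.5 CPM in marked and 71.6, 65.3, 134 and 72.0 CPM in unmarked controls. It lay above every marked control and overlapped the unmarked ones.

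**Figure D4:**
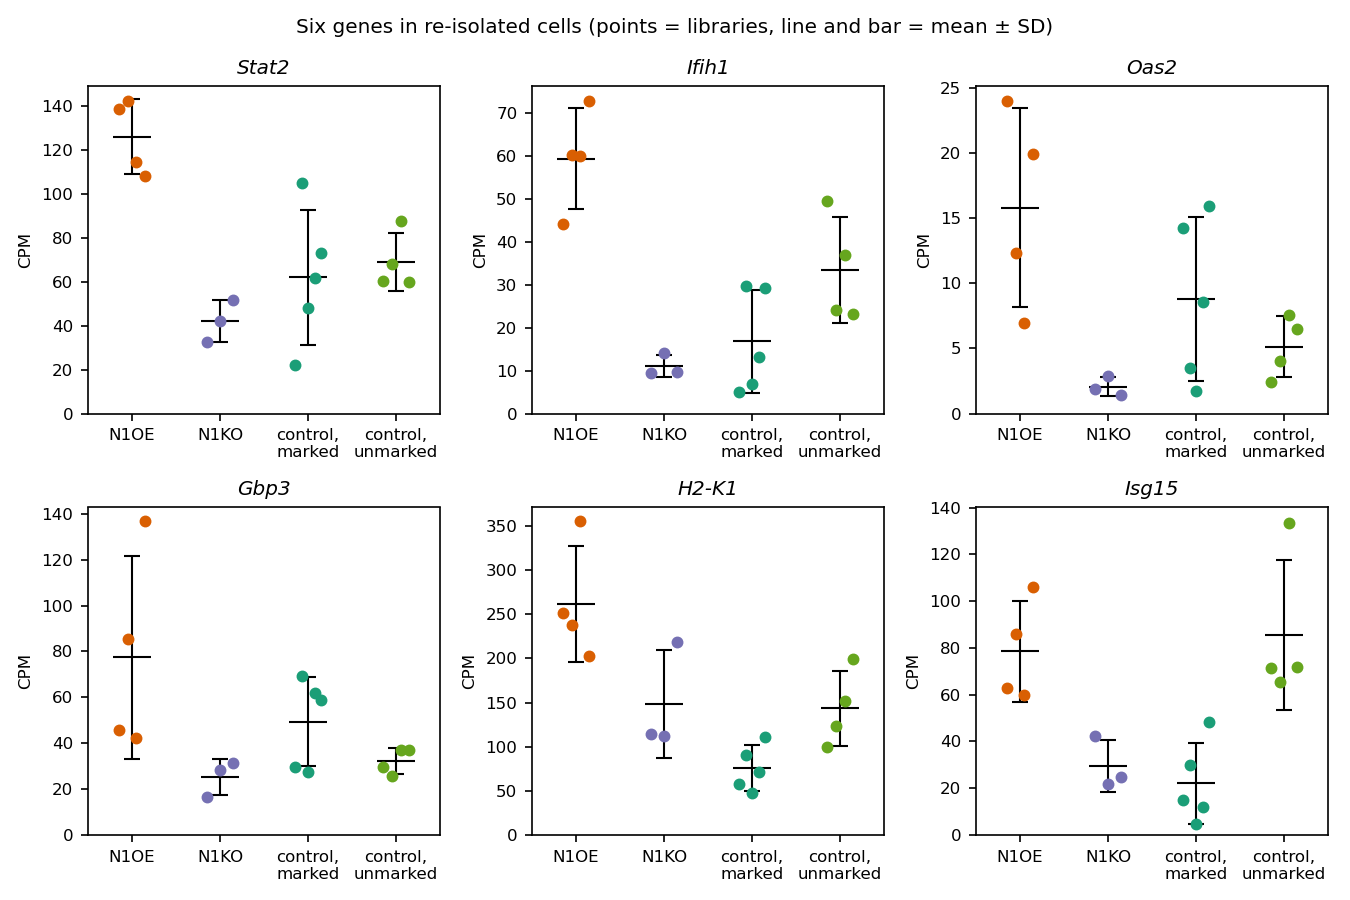
CPM of Stat2, Ifih1, Oas2, Gbp3, H2-K1 and Isg15 in each re-isolated library (points), with mean and SD (line and bar), for N1OE, N1KO, marked controls and unmarked controls. In Stat2 N1OE (108 to 143 CPM) lies above every other library. In H2-K1 N1OE (203 to 356 CPM) lies above every control but overlaps N1KO through N1KO 3 (219 CPM). Isg15 is as high in unmarked controls (65.3 to 134 CPM) as in N1OE (59.8 to 106 CPM).

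**Figure D5:**
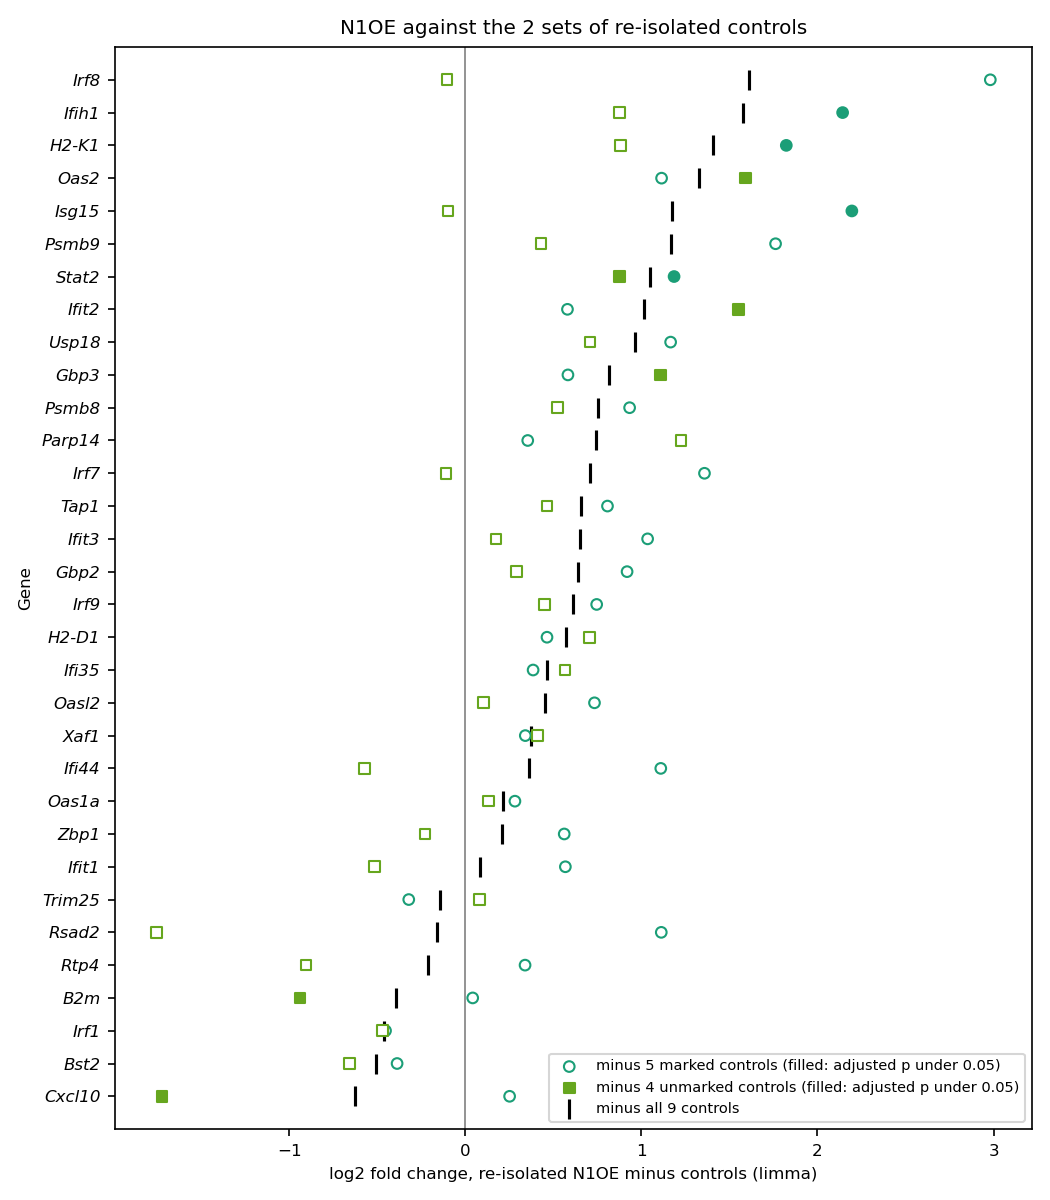
Log2 fold change of re-isolated N1OE against the 5 marked controls (circles), the 4 unmarked controls (squares) and all 9 (bars) for each listed gene, filled where the adjusted p of limma is under 0.05. Circles lie mostly right of squares. Isg15 stands at 2.20 against marked and near 0 against unmarked controls, and Cxcl10 at -1.72 against unmarked controls.

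The pooled calls were near the threshold. H2-K1 was lost without N1OE 3 alone (1.25, adjusted p = 0.0668). Stat2 was lost without any of the 4 N1OE libraries (0.0683 to 0.132) or without control 2, 3, 6, 7, 8 or 9 (0.0529 to 0.0698), and just missed with limma-voom (0.0505). Ifih1 was lost without any N1OE library (0.0711 to 0.124), without control 1, 3, 6, 7, 8 or 9 (0.0506 to 0.0668), and under median ratio scaling (1.51, 0.0566). Both were also lost with the 2 groups fitted alone (Stat2 0.0649, Ifih1 0.0661) and without the filter on low levels (0.0867 and 0.128). All of these fold changes stayed positive.

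Of 56 other interferon-induced genes 6 rose and 1 fell, of 25 other antigen presentation genes 1 rose, and of 15 signalling genes and 12 sensing genes 0 passed limma, with 3 and 2 at an unadjusted p under 0.05. Ccl5, a T cell chemokine, had 17.9 ± 8.27 CPM in N1OE and 1.71 ± 1.76 CPM in controls (SD, n = 4 and 9; 3.64 ± 0.66, adjusted p = 0.00189). Tap2, the partner of Tap1 in the peptide pump, had 60.5 ± 30.4 CPM against 21.6 ± 5.65 CPM (1.38 ± 0.34, 0.0159). The antibody receptor and ligase Trim21 (1.55 ± 0.38), Herc6 (1.93 ± 0.50), a ligase that attaches Isg15 in mice, and the GTPases Irgm2 (1.20 ± 0.32) and Gbp7 (1.25 ± 0.33) rose, as did the ATPase gene Tor3a (0.82 ± 0.23). Ly6e, a surface protein that restricts viral entry, fell to 91.0 ± 21.4 CPM against 338 ± 164 CPM (-1.79 ± 0.33, 0.00213).

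Beside these values stand those of other cells. Cd3e, a T cell receptor component, had 1.72 to 5.29 CPM in re-isolated N1OE, against 1 read in all 9 controls, and rose by limma (adjusted p = 0.000497). The sum of 9 lymphocyte and neutrophil markers was 4.74 to 6.74 CPM against 0.0606 to 3.98 CPM. Macrophage markers went the other way, with 2 of 13 lower (Cd68 and Cd14) and a sum of 39.6 to 196 CPM against 75.2 to 829.4 CPM. The endothelial genes Kdr and Emcn rose, with a sum of 7 markers of 41.4 to 87.7 CPM against 5.40 to 40.5 CPM. The part of these cells in H2-K1, Stat2, Ifih1 and Ccl5 was not tested.

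In libraries labelled N1KO no member passed the threshold against the 9 controls. For N1KO against all 9 controls limma called 0 of 32 members, with 3 at an unadjusted p under 0.05 (Oas2, Trim25 and H2-D1) and 0 by limma-voom, against 0.657% of 14155 tested genes called (0.466% higher and 0.191% lower). A count of 0 is near that share and is no result about the members. The median log2 fold change was -0.12 over the members and 0.01 over all tested genes, and no member separated the groups in either direction (2.85% and 0.961% of tested genes did). Oas2 had 1.91, 2.86 and 1.40 CPM in N1KO, against 1.76, 6.51 and 15.9 CPM as the lowest, median and highest control (-1.49 ± 0.60, adjusted p = 0.302). H2-D1 had 495, 895 and 781 CPM against 186, 431 and 618 CPM (0.93 ± 0.39, 0.351). Trim25 had 7.81, 5.73 and 10.3 CPM against 9.27, 14.7 and 22.5 CPM (-0.84 ± 0.34, 0.300). In all 3 genes N1KO overlapped the controls.

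Against the unmarked controls 2 of 32 members were lower in N1KO and 0 higher, against 3.41% and 3.88% of 13832 tested genes (7.29% either way), a count near that share. They were Ifih1 (-1.54, adjusted p = 0.0110) and Isg15 (-1.53, 0.0114), and 7 of 32 fold changes were positive, against 49.8% over all tested genes. Against the marked controls 0 passed, against 3.92% of 13870 tested genes (2.59% higher and 1.33% lower), and 20 fold changes were positive, against 51.0%. Isg15 had 42.3, 21.9 and 24.8 CPM in N1KO and Ifih1 9.39, 14.2 and 9.67 CPM. Both sat below all 4 unmarked controls and within the range of the marked ones. The macrophage sum in N1KO was 252 to 763 CPM and the endothelial sum 48.3 to 140.2 CPM, with 4 of 7 endothelial markers called higher than in controls, and their part was not tested. By limma 0 of 56 other interferon-induced genes, 0 of 25 antigen presentation genes, 0 of 15 signalling genes and 0 of 12 sensing genes passed in N1KO, with 6, 1, 1 and 0 of them at an unadjusted p under 0.05.

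N1OE set against N1KO leaves the controls out. By limma 4 of 32 members were higher in N1OE and 0 lower, against 2.92% and 4.43% of 14155 tested genes (7.35% either way), with a median log2 fold change of 0.64 over the members and 0.07 over all tested genes. In 6 members all N1OE libraries lay above all N1KO libraries and in 2 below (Cxcl10 and B2m), against 11.2% and 12.1%. These comparisons share the N1OE libraries with those above and are given side by side only.

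Stat2 had 139, 143, 115 and 108 CPM in N1OE, against 32.7, 42.1 and 51.7 CPM in N1KO (1.59 ± 0.40, adjusted p = 0.0170). Ifih1 had 44.1, 60.1, 59.98 and 72.9 CPM against 9.39, 14.2 and 9.67 CPM (2.42 ± 0.61, 0.0178). Oas2 had 24.04, 12.3, 6.96 and 19.97 CPM against 1.91, 2.86 and 1.40 CPM (2.82 ± 0.69, 0.0149). None of the 3 overlapped, and in each the lowest N1OE library was above the highest N1KO library. Gbp3 had 45.6, 85.3, 42.1 and 137 CPM against 16.5, 28.3 and 31.3 CPM, also without overlap (1.49 ± 0.45, 0.0454). H2-K1, at 252, 238, 356 and 203 CPM against 114, 112 and 219 CPM, overlapped through N1KO 3 and did not pass (0.86 ± 0.43, 0.224).

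B2m and Cxcl10 ran the other way without passing. B2m had 239.9, 151, 261 and 409.5 CPM in N1OE against 533, 677 and 440.1 CPM in N1KO (-1.12 ± 0.46, adjusted p = 0.151), and Cxcl10 had 14.3, 14.1, 10.1 and 14.4 CPM against 22.6, 24.2 and 39.0 CPM (-1.08 ± 0.63, 0.311). Both groups were separate in each gene. Of 56 other interferon-induced genes 5 rose and 1 fell, of 25 antigen presentation genes 1 fell, and of 12 sensing genes 0 passed limma, with 2 at an unadjusted p under 0.05. Ccl5 rose by 3.76 ± 0.84, and so did Herc6 (2.52 ± 0.64), Irgm2 (2.01 ± 0.40) and Gbp7 (1.70 ± 0.42), and Ly6e fell by 2.04 ± 0.42.

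The 4 calls depended on the N1KO libraries. Without N1KO 1 none of them passed (Stat2 0.103, Ifih1 0.0810, Oas2 0.0596, Gbp3 0.230), and without the filter on low levels Ifih1 (0.0590) and Gbp3 (0.0874) did not. Without N1KO 2 Stat2 (0.0645) and Gbp3 (0.101) were lost, and without N1KO 3 Ifih1 (0.0520), Oas2 (0.0533) and Gbp3 (0.0566). Gbp3 was also lost without N1OE 2 (0.105) or 4 (0.118), under median ratio scaling, which takes out a shift of 0.11 in log2 (1.38, 0.0509), and with limma-voom (0.0615), which lost Oas2 as well (0.0620). With N1OE and N1KO fitted alone Isg15 (1.43, 0.0218) and Usp18 (1.75, 0.0231) passed too, and without N1OE 3 Parp14 did (1.70, 0.0470). Of the macrophage markers 3 of 13 were lower in N1OE than in N1KO, and Cd3e, with 0 reads in N1KO, was higher. Their part was not tested.

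Among the controls themselves, marked libraries had less of 7 members than unmarked ones. By limma 0 of 32 were higher and 7 lower, against 13.6% and 14% of 13230 tested genes (27.6% either way). The median log2 fold change was -0.54 over the members and -0.00 over all tested genes. In 0 members all marked libraries lay above the unmarked ones and in 4 below, against 10.8% and 13%. Those 4 were Irf8, Isg15, Rtp4 and Cxcl10. The 4 below and the 7 called either way are near or under these shares and are no result about the members as a set.

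Cxcl10 had 6.74, 17.1, 6.93, 12.3 and 16.3 CPM in marked controls, against 37.2, 34.4, 54.9 and 50.3 CPM in unmarked ones (-1.98 ± 0.34, adjusted p = 0.00186). Isg15, whose values stand above, was lower by a log2 fold change of -2.29 ± 0.54 (0.00938). Rtp4 had 25.7, 27.2, 16.3, 21.998 and 43.4 CPM against 58.4, 48.9, 91.8 and 51.6 CPM (-1.25 ± 0.30, 0.0102). These 3 kept an adjusted p under 0.05 whichever of the 9 libraries was left out. Rsad2 (-2.87 ± 0.87, 0.0295), H2-K1 (-0.94 ± 0.29, 0.0304), B2m (-0.98 ± 0.32, 0.0393) and Irf7 (-1.47 ± 0.49, 0.0428) passed over all 9. Each of these 4 was lost when 1 of several libraries was left out, Rsad2 without control 2 (0.103), 5 (0.0745), 7 (0.0664) or 8 (0.0586). H2-K1 was lost without control 3 (0.0565), 5 (0.0724), 6 (0.0881), 7 (0.0783) or 8 (0.0600). Without the filter on low levels these 4 (0.0790 to 0.147) and Isg15 (0.0556) missed the threshold. B2m was lost without controls 2 to 8 (0.0576 to 0.100) and Irf7 without control 1, 2, 3, 5, 6, 7 or 8 (0.0546 to 0.103).

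Some members came close from the other side. Parp14 stood at 0.87 ± 0.30 higher in marked controls (adjusted p = 0.0501) and passed without control 7 (1.04, 0.0336). Irf8 (-3.09 ± 1.25, 0.0862) passed without control 1 (-1.76, 0.0352) or 4 (-3.66, 0.0439), and Ifih1 (-1.27 ± 0.52, 0.0893) without control 4 (-1.56, 0.0341) or 9 (-1.55, 0.0393). Over the 9 controls replicate 7 was lowest in 17 of 32 members and replicate 1 in 7. Both are marked. The highest were most often replicate 5 (9 members, unmarked) and replicate 9 (8 members, marked), so the sets were not cleanly ordered.

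Of 53 other interferon-induced genes 1 was higher and 8 lower in marked controls, of 25 antigen presentation genes 2 and 1, of 15 signalling genes 2 and 4, and of 10 sensing genes 3 and 0. Of all tested genes 13.6% were higher and 14% lower. The interferon-induced and antigen presentation counts lie near or under these shares and are no result about those lists. The receptor chains of type I interferon moved apart. Ifnar2 had 34.2 ± 8.57 CPM in marked and 80.6 ± 7.50 CPM in unmarked controls (SD, n = 5 and 4; -1.27 ± 0.23, adjusted p = 0.00245), while Ifnar1 was 1.07 ± 0.22 higher (0.00478). The feedback inhibitors Socs1 (-1.17 ± 0.22) and Socs3 (-1.68 ± 0.28) and the GTPase Gbp5 (-2.76 ± 0.42) were lower. Macrophage sums were 97.2 to 829.4 CPM in marked and 75.2 to 234 CPM in unmarked controls, with 4 of 13 markers higher, fibro-adipogenic sums were 1095 to 7914 against 171 to 587 CPM, and 5 of 10 myogenic markers were lower, Pax7 among them (-1.35 ± 0.42, 0.0310). Their part in the members' levels was not tested, and when the sets follow the sample descriptions, which leave control 7 unmarked, 0 of the 32 members and 0 of all genes passed limma.

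Whether the N1OE effect on the members differed between the 2 settings was tested directly, as the effect after re-isolation minus that in culture. The kit differs between settings and the mark is spread unevenly over the groups, so NICD1 cannot be told apart from these here. By limma 0 of 32 members passed, with 9 at an unadjusted p under 0.05 and 0 by limma-voom, against 3.22% of 14245 tested genes (2.31% higher and 0.913% lower). The median was 0.85 over the members, 27 of which were positive, and 0.04 over all tested genes. Ifit2 came nearest (2.58 ± 0.79, adjusted p = 0.0773). Its level was 25.9 ± 9.51 CPM in re-isolated N1OE against 14.3 ± 8.48 CPM in re-isolated controls (SD, n = 4 and 9), and 3.37 ± 0.771 CPM in cultured N1OE against 13.0 ± 10.6 CPM in cultured controls (n = 3 and 4). Ifit2 passed with the unmarked re-isolated controls alone (3.12, 0.0135), where it was the 1 member called, against 12% of tested genes. It also passed without cultured control 1 (adjusted p = 0.0369). H2-K1 (1.42 ± 0.49, 0.130) passed with the marked re-isolated controls alone (1.84, 0.00893), as 1 of 32 members against 7.05% of tested genes. With either control set the cultured controls, which are all marked, were kept. Outside the set 3 of 55 interferon-induced genes passed, Irgm2 (2.74 ± 0.49, adjusted p = 0.00203), Cmpk2 (3.73 ± 0.80, 0.00904) and Ccl5 (3.79 ± 0.99, 0.0345), and 2 of 25 antigen presentation genes, H2-T23 (2.78 ± 0.60, 0.00928) and Tap2 (2.61 ± 0.61, 0.0170). Of 16 signalling and 10 sensing genes 0 passed limma, with 0 and 1 at an unadjusted p under 0.05.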

How the data were processed

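RNA-seq of 23 mouse libraries was analysed, in 5 groups named in the sample titles. The submitters' processing notes name Trimmomatic 0.33, FastQC, featureCounts, edgeR and the mm10 build, and neither aligner nor annotation is given in the sources used here. The authors deposited log2 CPM to which a small count had been added, so that -4.19 stands for 0 reads. Per the labels' protocols, RNA of re-isolated cells was taken up in Buffer RLT, bound to beads, turned into cDNA with NEBNext low-input reagents and tagged with Nextera XT, whereas RNA of cultured cells was extracted with Trizol for TruSeq stranded mRNA libraries. Without a stated strand setting, overlapping genes (Tap1 and Psmb9, Irf7 and Phrf1, Irf9 and Rnf31, Irf1 and Gm17334, Irf8 and Gm20388, Cxcl10 and Art3, B2m and Patl2, Rtp4 and Masp1) and near-identical ones (class I, Ifit3 and Ifit3b, Gbp2 and Gbp3, Oas genes) may share reads.

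CPM were recovered as 2 to the deposited value minus the floor of 0.0548, and 100.0% of values up to 200 reads came out whole (tolerance 0.05 reads). Limma 3.58.1 was run on the deposited log2 values of every gene that reached 1 CPM in 3 or more of the libraries compared (R 4.3.3; trend, two-sided, Benjamini-Hochberg over all genes tested, threshold 0.05). It was checked on simulated data. A single fit held the 3 re-isolated groups and another the 4 N1OE and control groups, for the difference of N1OE effects. Every other comparison had a fit of its own. Folds against 0 reads are lower bounds from 3 reads over the group, and ratios with 1 to 3 reads have 95% intervals of counting error only. 3 reads equal 0.103 to 0.258 CPM. Alternatives were a pseudocount of 1 CPM, no filter, a minimum of 5 CPM, median ratio scaling, limma-voom on recovered reads, a replicate block, subsets of controls, 2 groups alone and leaving out each library.

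All members are accounted for, and up to 8 other pathway genes a comparison may be named: those past the threshold with a mean of at least 5 CPM in the higher group, smallest p first. These come from lists of interferon signalling, sensing, other interferon-induced and other antigen presentation genes. Marker lists cover myogenic, macrophage, dendritic, lymphocyte and neutrophil, endothelial, fibro-adipogenic, pericyte and smooth muscle, Schwann and glial, and pluripotent cells. Members and lists were chosen with earlier results of these data known. Coordinates come from GENCODE M21 (21186 of 21264 IDs matched) and promoters from RefSeq. A result of the signalling list for N1OE against N1KO is not reported here.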

Additional observations from a re-analysis of the deposited data

Results flagged for a closer look

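In 10 of 94 combinations of a member and a group of 4 to 9 libraries, 1 library stood apart from the others by Dixon's test. Chance alone sets a library apart in about 1 combination in 20 where values are not tied, and members of 1 library are not independent. For Zbp1 and Oasl2 in cultured controls all other libraries were tied at 0 CPM, so that rate does not hold there.

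In re-isolated N1OE 3 of the 10 cases fall on library 3, which had 21.8 CPM of Ifit3 (91.3 to 119 in the other N1OE libraries), 1.89 CPM of Rsad2 (5.60 to 6.60 in the others) and 10.1 CPM of Cxcl10 (14.1 to 14.4 in the others). This library was the lowest of its group in 19 of 32 members. Library 2 of that group had 301 CPM of Irf1, against 134 to 139 in the others.

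Among the re-isolated controls replicate 1 had 0 reads of Irf8 (1.49 to 32.4 CPM in the others) and 22.1 CPM of Stat2 (48.1 to 105 in the others), and replicate 7 had 6.93 CPM of Ifit3 (32.8 to 97.2 in the others). In cultured controls replicate 4 alone had reads of Zbp1 (0.0595 CPM) and Oasl2 (0.476 CPM), and replicate 2 had 4.65 CPM of Gbp3 (6.60 to 6.89 in the others).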

How the results depend on the processing

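Over all settings 4338 values of single members kept their side of the threshold, 127 fell short of it and 32 newly passed. Among values past the threshold in either fit 0 reversed direction. Values past it in neither fit count as kept even where their direction changed. The cause of the changes below was not tested unless fewer libraries or other genes entered by construction. In cultured N1OE, against 2 members called, a pseudocount of 1 CPM gave 1, no filter 0 (743 of all genes, against 1325), a minimum of 5 CPM 1 and limma-voom 1. In re-isolated N1OE against controls, with 3 members and 1000 genes called, no filter gave 1 member, 2 groups alone 1 and unmarked controls 6, and over all genes marked controls gave 1627 and unmarked controls 2691. In N1KO against controls, with 0 members and 93 genes, unmarked controls gave 2 members, and over all genes the pseudocount gave 240, limma-voom 285, marked controls 544, unmarked controls 1008 and 2 groups alone 35. In N1OE against N1KO, with 4 members and 1040 genes, no filter and limma-voom gave 2 members each, and 2 groups alone gave 1608 genes. For marked against unmarked controls, with 7 members and 3645 genes, no filter gave 3 members, and sets by sample description gave 0 members and 0 genes. For the difference of N1OE effects, with 0 members and 459 genes, limma-voom gave 224 genes, marked controls 1 member and 983 genes, and unmarked controls 1 member and 1672 genes.

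Leaving out 1 library at a time gave 0 to 4 members and 158 to 1765 genes in cultured N1OE, 0 to 3 and 562 to 1090 in re-isolated N1OE, 0 to 0 and 12 to 108 in N1KO, and 0 to 5 and 465 to 934 in N1OE against N1KO. It gave 27 to 30 and 6892 to 8109 for the settings in controls, 29 to 30 and 6051 to 8376 in N1OE, 3 to 8 and 2434 to 3821 for marked against unmarked controls, and 0 to 1 and 235 to 497 for the difference of N1OE effects.

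Equal replicate numbers did not pair the libraries: correlations of same-numbered deviations ran from -0.158 to 0.1535, with 0.468 for pair 3 in culture. With the replicate number as a block, re-isolated N1OE had 1 member and 445 genes called, N1KO 61 genes, N1OE against N1KO 2 members, and cultured N1OE 2 members, without Rtp4 (adjusted p = 0.0924) and with Xaf1 (-1.10, 0.0226). The settings in controls had 26 members under the block, without Irf8 (0.0863), Stat2 (0.152), B2m (0.0829) and Tap1 (0.0980). Depth limits genes near 0 reads, where 3 reads equal 0.103 to 0.258 CPM.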
